A study of Mus musculus with 32 samples.

Results

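Mouse embryos from eggs without a working Dppa4 gene were compared with controls in total RNA at the end of the 1-cell stage and at the late 2-cell stage. The 8 libraries used are those titled Dppa4 among the total RNA samples, out of 32 libraries in the study, chosen by genotype, stage and library type and by no measured value. The mutant genotype is m-z+ for Dppa4, which the labels also give as a maternal knockout (mKO), read here as an egg from a mother without a working copy and a zygote with a working paternal copy. Its control is m+z+. Each genotype had 2 libraries at 12 hours and 2 at 28 hours post fertilization, all on strain B6, and the libraries are reverse-stranded total RNA made from embryo lysates. The allele, the genotype of the control mothers and the number of embryos per library are not given in the labels, and p-values measure the spread between libraries, which may be partly technical. For comparison, polyA libraries of single late 2-cell embryos (3 Dppa4 m-z+ and 2 WT, strain B6) and 8 total RNA libraries of Dppa2 m-z+ and m+z+ embryos were used. The Dppa2 embryos have a mixed B6/DBA background, so that gene and background cannot be told apart between the arms.

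DPPA4 is a small nuclear protein with a SAP domain, a fold that binds DNA, and it works as a partner of DPPA2, whose gene lies next to its own. In mouse embryonic stem cells the pair keeps the promoters of some developmental genes free of DNA methylation and activates Dux and the genes of the 2-cell stage. The mouse embryo starts its own transcription late in the 1-cell stage and strongly at the 2-cell stage, while RNA laid down by the mother is degraded. The m-z+ genotype asks what the egg's own supply contributes to these steps.

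Values are FPKM, fragments per kilobase of gene scaled to the mapped fragments of a library, and changes are differences of log2(FPKM + 1) with limma standard errors (SE). Such a change understates that of genes near 0. The depth of the libraries is unknown, since no counts come with the values. The FPKM total ran from 412115 to 552218 in m-z+ libraries and from 417534 to 560246 in m+z+ libraries. Across the 13634 genes tested, 1-cell libraries of different genotype correlated at r = 0.984 to 0.987 and those of the same genotype at 0.986 in both pairs. At the 2-cell stage the range was 0.956 to 0.964 between genotypes, against 0.957 between the m-z+ libraries and 0.949 between the m+z+ libraries. The closest pair at this stage was thus of mixed genotype, and the m+z+ libraries were the least alike. Maternal transcripts summed to 9530 and 9679 FPKM in 2-cell m-z+ libraries, against 8387 and 11399 FPKM in 2-cell m+z+ libraries, so both mutant libraries lay between the controls. Ribosomal protein mRNAs also bracketed the mutants, with the controls in the opposite order: 3150 and 3221 FPKM in 2-cell m-z+ libraries and 4143 and 2257 FPKM in m+z+ libraries. Since FPKM is scaled to each library, the amount of RNA per embryo is not measured.

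Dppa4 itself was examined first, as the check of the genotype. At the 1-cell stage it measured 1.13 and 0 FPKM in m-z+ libraries, against 4.37 and 6.92 FPKM in m+z+ libraries. Both mutant libraries lay below both controls, and the second was listed at 0. The log2 difference was -2.16 (SE 0.41, 95% interval -3.10 to -1.22), which did not pass in limma with Benjamini-Hochberg adjustment over all genes (adjusted p = 0.684, unadjusted p = 0.000752). In 2-cell embryos the levels were 25.5 and 20.3 FPKM in m-z+ libraries and 30.1 and 17.6 FPKM in m+z+ libraries. The groups overlapped there, with a log2 difference of -0.02 (SE 0.41, interval -0.96 to 0.93). The interval includes a deficit and an excess of nearly 2-fold. The difference between the stages was 2.14 (SE 0.58, limma unadjusted p = 0.00598). In polyA RNA of single late 2-cell embryos Dppa4 measured 155, 152 and 125 FPKM in m-z+ libraries and 201 and 184 FPKM in WT libraries. All 3 mutant embryos lay below both WT embryos there, with a log2 difference of -0.42 (SE 0.34, limma unadjusted p = 0.228). Over both stages the log2 difference in total RNA was -1.09 (SE 0.44, limma unadjusted p = 0.0361), far from the threshold after adjustment (limma adjusted p = 0.9997). It was -0.66 without the second 1-cell m-z+ library.

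Dppa2, the partner gene, differed little. It measured 60.2 and 50.4 FPKM in 1-cell m-z+ libraries, against 47.7 and 51.1 FPKM in 1-cell m+z+ libraries. At the 2-cell stage it measured 45.5 and 44.1 FPKM in m-z+ libraries and 49.5 FPKM in both m+z+ libraries. The groups overlapped at the 1-cell stage, and at the 2-cell stage both mutant libraries lay slightly below the controls (log2 difference -0.14, 95% interval -0.48 to 0.20). Over both stages the difference was 0.01 (interval -0.23 to 0.25). Of 18 further genes around the locus on chromosome 16 found in the table, 7 were expressed highly enough to test. None of these passed in limma, and their changes ran from -0.07 for Abhd10 to 0.39 for Morc1, an ATPase of the germ line. Morc1 measured 22.2 and 17.9 FPKM in 1-cell m-z+ libraries, against 15.6 and 17.3 FPKM in 1-cell m+z+ libraries, and 35.1 and 38.9 FPKM in 2-cell m-z+ libraries, against 40.4 and 16.1 FPKM in 2-cell m+z+ libraries. Its difference at the 2-cell stage rested on the second control.

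**Figure D1:**
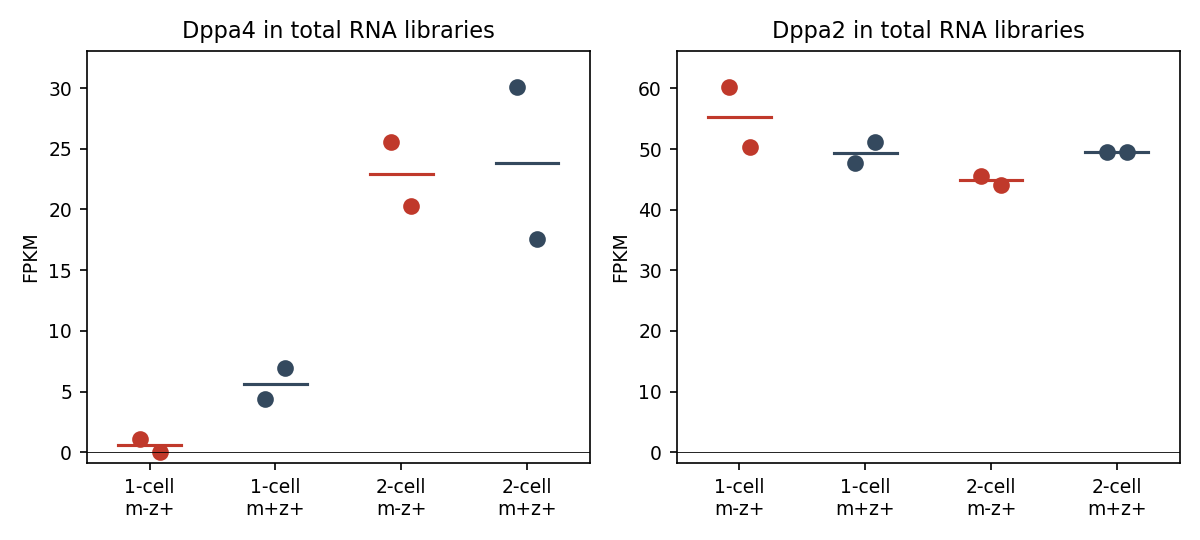
FPKM of Dppa4 (left panel) and Dppa2 (right panel) in the 8 total RNA libraries, by stage and genotype; points are libraries and lines are means of 2. The 1-cell m-z+ libraries lie at 1.13 and 0 FPKM of Dppa4, below both 1-cell controls, while its 2-cell levels overlap between the genotypes; Dppa2 lies between 44.1 and 60.2 FPKM throughout.

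Few genes passed the threshold in any comparison of the genotypes. Over both stages 0 of 13634 genes passed in limma at an adjusted p of 0.05 (0% of genes). The smallest adjusted p was 0.483. The limma unadjusted p was under 0.05 for 399 genes (2.93%). This is below the share of 0.05 that unchanged genes alone would give with uniform p-values. The 95% interval lay within a 2-fold change either way for 12925 genes (94.8%). On data simulated with these spreads, the same test recovered 62% of genes changed 2-fold and 98% of those changed 4-fold. The changed genes, 100 per fold size, were drawn only from genes clearly expressed in the controls at both stages. They were changed equally at both stages. Recovery of genes expressed at a lower level, or of changes fewer in number, was not simulated. At the 1-cell stage alone 0 genes passed in limma (0% of genes), with 269 (1.97%) at an unadjusted p under 0.05, and 11054 intervals (81.1%) lay within 2-fold. Later, in 2-cell embryos, 6 genes passed (0.044% of genes), 3 higher and 3 lower in m-z+ embryos. The limma unadjusted p was under 0.05 for 522 genes (3.83%), and 10318 intervals (75.7%) lay within 2-fold. Simulated 2-fold changes were recovered less often at a single stage, in 34% of cases at the 1-cell and 31% at the 2-cell stage. None passed for a change that differed between the stages (0 of 13634 in limma, 0% of genes, 370 or 2.71% at an unadjusted p under 0.05). The shares at an unadjusted p under 0.05 thus lay below 0.05 in each of these comparisons. The median of all log2 changes was 0.01.

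**Figure D2:**
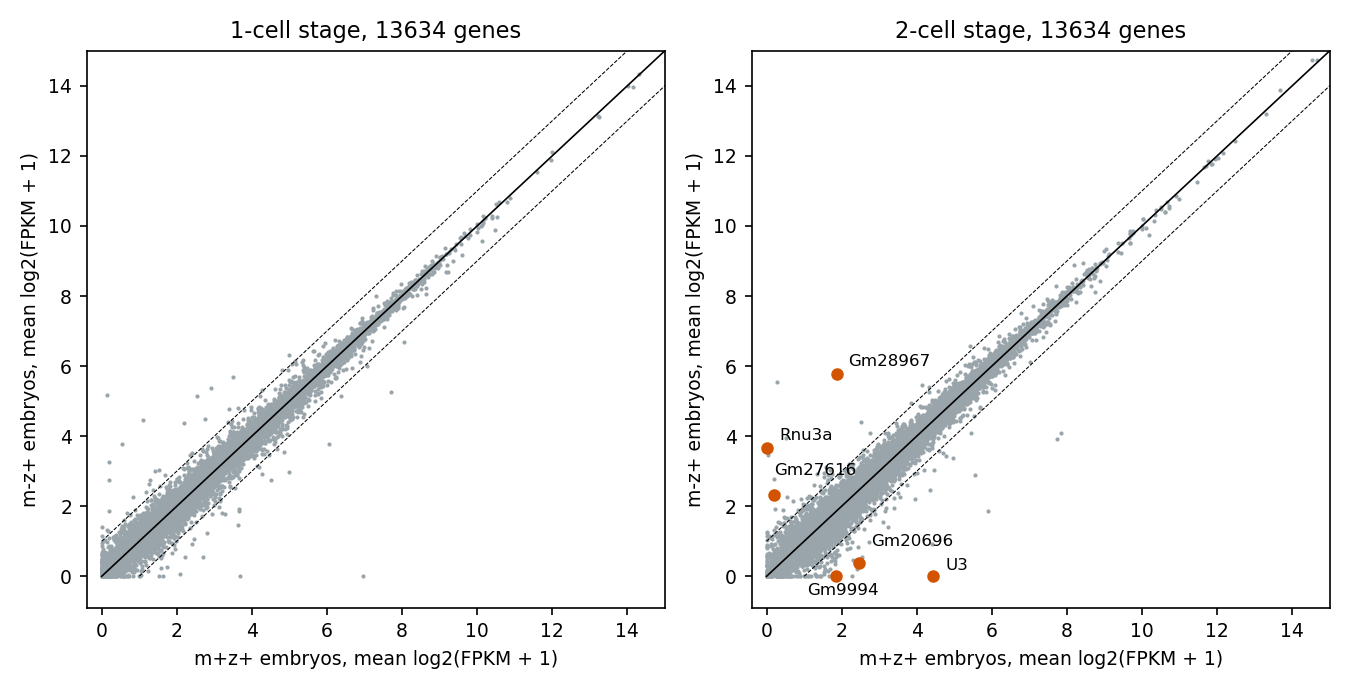
Mean log2(FPKM + 1) of the 2 m-z+ libraries (vertical) against that of the 2 m+z+ libraries (horizontal) for 13634 genes at each stage. The solid line marks equality and the dashed lines a difference of 1 on this scale; orange points are the 6 genes past the threshold at the 2-cell stage, and there is none at the 1-cell stage.

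Of the 6 genes that passed at the 2-cell stage, 3 were models of small RNAs that share their sequence with a second gene model. The U3 small nucleolar RNA, which guides early cleavage of the ribosomal RNA precursor, has 2 models at 1 place on chromosome 10, Rnu3a (mm10 chr10:40258467-40258680, plus strand, 214 bases) and U3 (213 bases). They differ by the last base, shown in capitals in the Rnu3a sequence, so that the identity of the locus can be seen. A small Cajal body RNA, Scarna10 (chr6:125186359-125186683, minus strand, 325 bases, inside Ncapd2), contains the whole of the second model, Gm28967 (281 bases). Its first 300 bases (chr6:125186384-125186683) are given with the part that belongs to Gm28967 in capitals. Scarna13 (chr12:105031075-105031349, minus strand, 275 bases) contains the microRNA model mmu-mir-3069 (65 bases), likewise in capitals; this pair did not pass and was picked after its values were seen. The sequences are GENCODE M21 transcripts, 5′ to 3′.
Rnu3a: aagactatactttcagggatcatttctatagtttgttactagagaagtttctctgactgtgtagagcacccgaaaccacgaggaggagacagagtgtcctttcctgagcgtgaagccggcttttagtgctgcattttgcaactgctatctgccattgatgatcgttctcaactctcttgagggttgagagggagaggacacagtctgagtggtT
Scarna10: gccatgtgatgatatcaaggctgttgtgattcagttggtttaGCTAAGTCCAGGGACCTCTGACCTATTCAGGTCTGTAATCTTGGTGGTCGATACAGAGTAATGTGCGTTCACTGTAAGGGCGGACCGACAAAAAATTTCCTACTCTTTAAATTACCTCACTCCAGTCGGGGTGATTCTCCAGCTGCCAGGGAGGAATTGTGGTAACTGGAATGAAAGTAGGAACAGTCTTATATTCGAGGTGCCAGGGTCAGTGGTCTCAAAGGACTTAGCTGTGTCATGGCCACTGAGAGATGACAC
Scarna13: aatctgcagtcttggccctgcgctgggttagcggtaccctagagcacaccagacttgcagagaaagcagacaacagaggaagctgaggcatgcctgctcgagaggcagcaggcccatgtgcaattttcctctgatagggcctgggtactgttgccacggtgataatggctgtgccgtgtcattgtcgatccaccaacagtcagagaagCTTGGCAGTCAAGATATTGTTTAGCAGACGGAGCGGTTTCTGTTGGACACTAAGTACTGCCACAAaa

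In these pairs the FPKM stood on 1 model or the other, library by library. Rnu3a held 11.7 and 11.5 FPKM in 2-cell m-z+ libraries and 0.00919 and 0.00937 FPKM in 2-cell m+z+ libraries (log2 difference 3.64, SE 0.28, limma adjusted p = 0.0172). U3 was listed at 0 in both 2-cell m-z+ libraries and held 34.1 and 12.2 FPKM in the m+z+ libraries (limma adjusted p = 0.0205). Summed over both models the locus held 11.7 and 11.5 FPKM in 2-cell m-z+ libraries, against 34.1 and 12.2 FPKM in m+z+ libraries. The first control thus stood far above the other 3 libraries, which lay close together, and the log2 difference of the sum was -0.77 (SE 0.44, limma unadjusted p = 0.12).

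The second pair behaved in the same manner. Gm28967 held 52.1 and 55.7 FPKM in 2-cell m-z+ libraries and 4.23 and 1.61 FPKM in m+z+ libraries (log2 difference 3.89, SE 0.33, limma adjusted p = 0.0172). Scarna10 held 7.44 and 5.62 FPKM in 2-cell m-z+ libraries and 69.9 and 29.6 FPKM in m+z+ libraries (limma adjusted p = 0.189). Their sums were 59.5 and 61.4 FPKM in 2-cell m-z+ libraries, against 74.2 and 31.2 FPKM in m+z+ libraries, and both mutant sums lay between the controls. With all gene models that overlap by at least 80% each way on 1 strand summed in this manner (91 models), 0 genes passed at the 2-cell stage in limma. The 3 other genes that had passed are not summed with any model by this rule; their differences were as large as before, at an adjusted p of 0.0911 in limma. None passed either with no filter on low values or in a limma fit of all 16 total RNA libraries. For Scarna13 the switch fell inside a genotype. Scarna13 was listed at 0 in both 1-cell and in the second 2-cell m-z+ library but held 284 FPKM in the first 2-cell m-z+ library, and the 4 m+z+ libraries held 122 to 249 FPKM. The model mmu-mir-3069 held 38.998, 31.96 and 39.92 FPKM in the 3 libraries without Scarna13 and under 0.15 FPKM in the other 5.

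**Figure D3:**
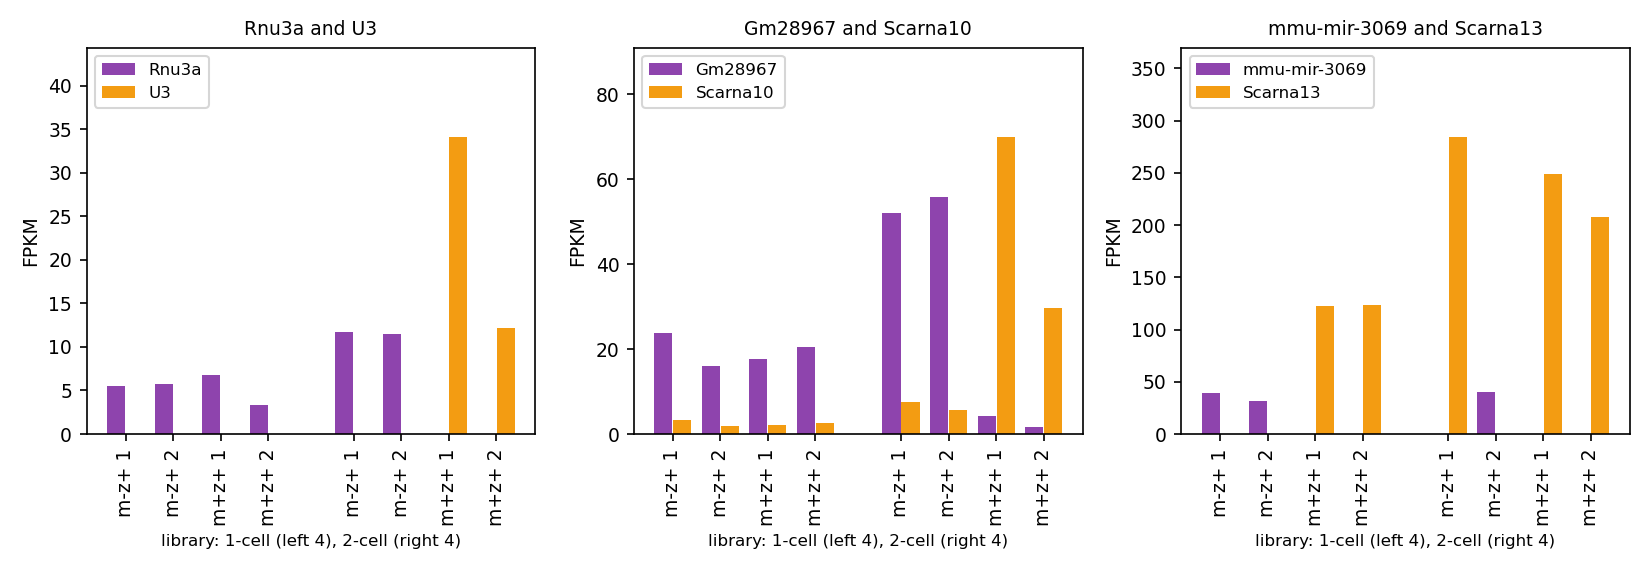
FPKM of the 2 overlapping gene models at each of 3 small RNA loci, by library, with the 1-cell libraries left and the 2-cell libraries right in each panel. In most libraries 1 model of a pair holds nearly all of the signal, and at the 2-cell stage Rnu3a holds 11.7 and 11.5 FPKM in m-z+ libraries while U3 holds 34.1 and 12.2 FPKM in m+z+ libraries.

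The remaining 3 genes past the threshold at the 2-cell stage were low. Gm20696, a long model on chromosome 6 that spans Eif4e3 and part of Foxp1, held 0.400 and 0.228 FPKM in 2-cell m-z+ libraries and 4.08 and 4.96 FPKM in m+z+ libraries (limma adjusted p = 0.0321). Eif4e3, which lies within it, measured 45.2 and 52.3 FPKM in 2-cell m-z+ libraries and 49.0 and 45.5 FPKM in m+z+ libraries, so the groups overlapped. Gm9994, named Gal3st2b in GENCODE M21 and coding for a sulfotransferase, was listed at 0 in both 2-cell m-z+ libraries and held 2.68 and 2.54 FPKM in the m+z+ libraries (limma adjusted p = 0.0448). Gm27616, a microRNA model inside Prrc2c, held 3.40 and 4.59 FPKM in 2-cell m-z+ libraries, against 0 and 0.301 FPKM in m+z+ libraries (limma adjusted p = 0.0456). Gm20696 held 0.703 and 0.659 FPKM in 1-cell m-z+ libraries and 0.743 and 0.790 FPKM in 1-cell m+z+ libraries, and the other 2 genes were listed at 0 in all 1-cell libraries.

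Over both stages 20 genes were named by a rule: the smallest unadjusted p among genes with a mean of at least 5 FPKM in 1 group whose m-z+ libraries lay on the same side of both controls at each stage. Since the rule used this contrast, the values are a description, and none of the 20 passed in limma. Of all genes tested, 300 lay higher (2.2%) and 215 lower (1.58%) in m-z+ embryos without overlap at either stage, 515 in all (3.78%). The 4 genes with the smallest adjusted p (0.483 in limma for each) were Ero1lb, Mfhas1, Rnasek and Gm20716. Ero1lb, an oxidase that helps proteins form disulfide bonds in the endoplasmic reticulum, measured 9.83 and 10.01 FPKM in 1-cell m-z+ libraries and 4.21 and 4.01 FPKM in 1-cell m+z+ libraries. At the 2-cell stage it measured 4.16 and 4.29 FPKM in m-z+ libraries and 2.25 and 1.49 FPKM in m+z+ libraries, which gives a log2 difference of 0.99 over both stages (SE 0.14). The replicates lay close together and the genotypes stood about 2-fold apart at each stage.

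Mfhas1, a leucine-rich repeat protein with a GTPase domain, measured 7.19 and 6.78 FPKM in 1-cell m-z+ libraries and 1.59 and 1.73 FPKM in 1-cell m+z+ libraries. In 2-cell embryos it measured 3.42 and 2.11 FPKM in m-z+ libraries and 0.701 and 1.26 FPKM in m+z+ libraries (log2 difference over both stages 1.25, SE 0.20). Rnasek, a small membrane protein named for ribonuclease activity, measured 6.93 and 7.60 FPKM in 1-cell m-z+ libraries, against 2.37 and 1.43 FPKM in 1-cell m+z+ libraries (log2 difference over both stages 1.28, SE 0.21). Nearly the whole of Rnasek lies under the longer model Gm21988 on the same strand, so the split of their reads is uncertain; Gm21988 differed by 0.09 (SE 0.19). Gm20716 is a read-through model across Adnp and Dpm1. It was listed at 0 in both 1-cell m-z+ libraries and held 1.27 and 0.792 FPKM in 1-cell m+z+ libraries, and held 2.23 and 3.65 FPKM in 2-cell m-z+ libraries and 10.5 and 8.64 FPKM in 2-cell m+z+ libraries (log2 difference over both stages -1.23, SE 0.19).

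Among genes of the cytoskeleton and cell division, Gas2l3, a linker of actin and microtubules that acts in cytokinesis, was lower in the mutant libraries. It measured 10.8 FPKM in both 1-cell m-z+ libraries and 29.4 and 26.6 FPKM in 1-cell m+z+ libraries, and 9.93 FPKM in both 2-cell m-z+ libraries and 14.1 and 14.7 FPKM in 2-cell m+z+ libraries. The log2 difference was -1.29 at the 1-cell stage (SE 0.16, limma adjusted p = 0.156) and -0.50 at the 2-cell stage (SE 0.16). Dip2c measured 3.69 and 5.18 FPKM in 1-cell m-z+ libraries and 7.40 and 8.97 FPKM in 1-cell m+z+ libraries, with a log2 difference over both stages of -0.77 (SE 0.16). These were the only protein-coding genes lower in m-z+ embryos among the 20, besides Gm20716 and the histone Hist2h2bb. Hist2h2bb shares its whole length with a second model of the same name; it measured 152 and 68.7 FPKM in 1-cell m-z+ libraries, against 296 and 240 FPKM in 1-cell m+z+ libraries.

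The 14 genes higher in m-z+ embryos included 2 histone genes and 2 genes for RNA-binding or RNA-trimming proteins. Eri1, a 3′ exonuclease that trims histone mRNA ends and 5.8S rRNA, measured 15.9 and 16.6 FPKM in 1-cell m-z+ libraries and 12.3 and 11.5 FPKM in 1-cell m+z+ libraries. At the 2-cell stage it measured 6.40 and 5.81 FPKM in m-z+ libraries and 2.42 and 3.21 FPKM in m+z+ libraries (log2 difference over both stages 0.66, SE 0.15). Pcbp3, a poly(rC)-binding protein, measured 35.8 and 33.5 FPKM in 1-cell m-z+ libraries and 17.8 and 17.6 FPKM in 1-cell m+z+ libraries (log2 difference over both stages 0.61, SE 0.15). The histone genes Hist2h2ac and Hist4h4 were higher by 0.46 (SE 0.11) and 0.53 (SE 0.14) on the log2 scale. Hist2h2ac held 105 and 100.1 FPKM in 2-cell m-z+ libraries, against 77.1 and 64.9 FPKM in 2-cell m+z+ libraries. Chchd7, a protein of the mitochondrial intermembrane space, had a log2 difference of 0.85 (SE 0.20), and held 6.27 and 5.89 FPKM in 2-cell m-z+ libraries against 1.59 and 2.26 FPKM in 2-cell m+z+ libraries. The other higher genes were Mfap3 (0.69), the HMG-box factor Tox3 (0.68), 9030624J02Rik (0.68), which is the endosomal recycling subunit Vps35l, Ccdc38 (0.66), mt-Ts1 (0.54) and the microRNA model Gm27671 inside Marf1 (3.91), whose second 1-cell m-z+ library held only 0.170 FPKM. Without that library Gm27671 passed over both stages (limma adjusted p = 0.0267). In the Dppa2 arm Gm27671 held 46.3 FPKM or more in 4 libraries and 0.291 FPKM or less in the other 4, with both levels in each genotype.

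**Figure D4:**
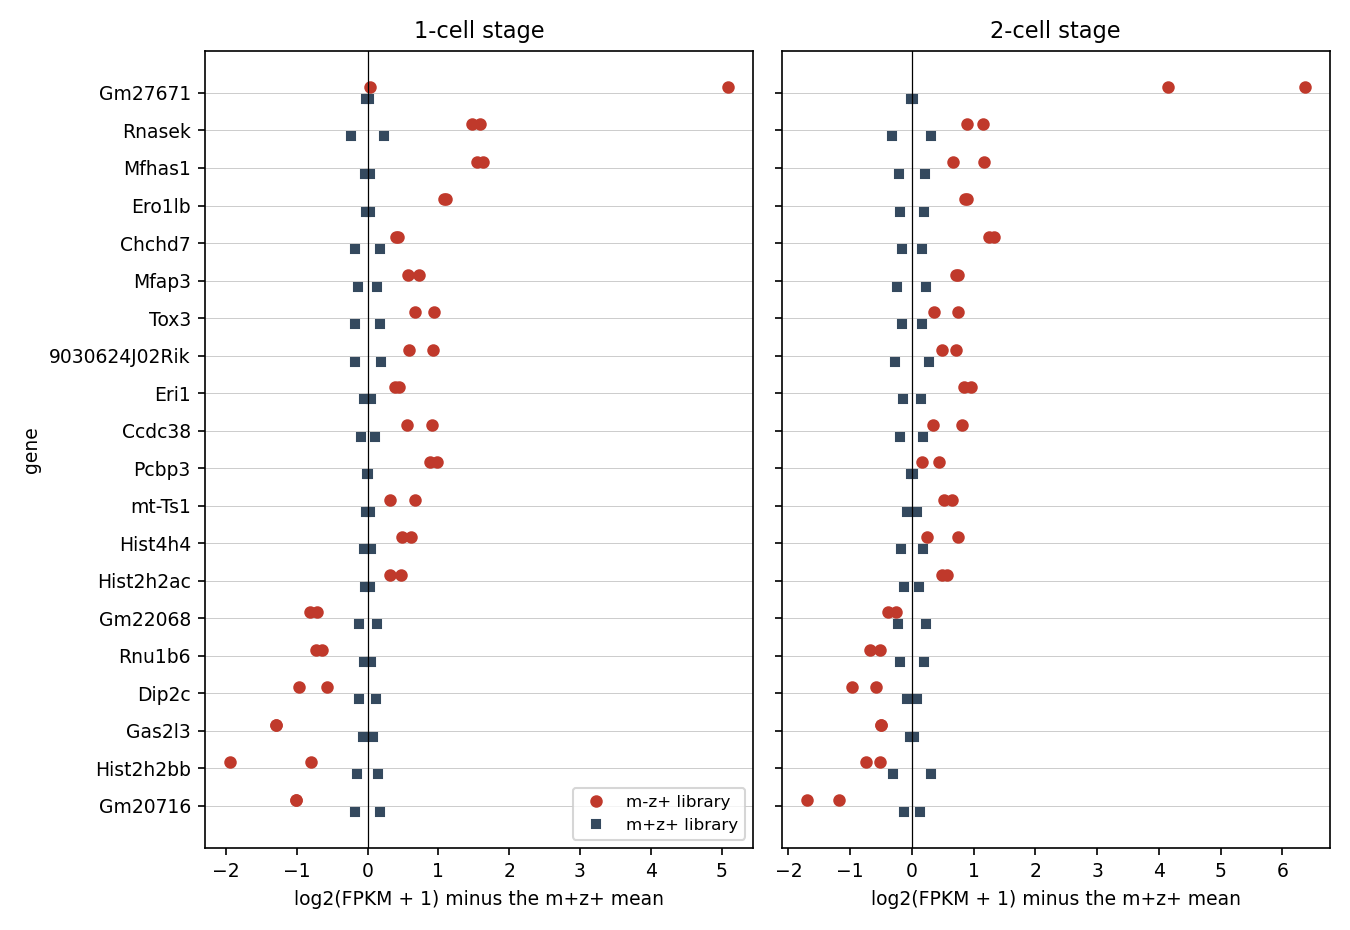
Each library's log2(FPKM + 1) minus the mean of the 2 m+z+ libraries of its stage, for the 20 genes named over both stages; red circles are m-z+ and dark squares m+z+ libraries. The genes were chosen for this separation, none passed the threshold, and the differences run from -1.23 for Gm20716 to 3.91 for Gm27671.

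Several of the named genes lay near each other on a chromosome, a feature that the rule did not use. These regions were picked after the values were seen and carry no test. On chromosome 3, Hist2h2ac (mm10 96220361 to 96220880), Hist2h2bb (96269752 to 96270132) and Rnu1b6 (96460024 to 96460189) lay close together, but their directions were mixed. Hist2h2ac was higher in m-z+ embryos at both stages, while Hist2h2bb and Rnu1b6 were lower. Eri1 and Mfhas1 were adjacent among the tested genes of chromosome 8 (Eri1 at mm10 35465253 to 35496196, Mfhas1 at 35587798 to 35679449), and both were higher in m-z+ embryos at both stages. The microRNA model AC129211.1, farther along, was also higher (log2 difference 1.38, SE 0.32) but was lower in polyA RNA of m-z+ embryos (-1.64, SE 0.40) and differed by -0.14 in the Dppa2 arm. Ppp1r3b, on the other side, differed by -0.05 (SE 0.14) in total RNA. On chromosome 13, Ero1lb has the transcribed pseudogene Gpr137b-ps next to it. Gpr137b-ps measured 4.18 and 4.85 FPKM in 1-cell m-z+ libraries and 1.44 and 1.73 FPKM in 1-cell m+z+ libraries, with a log2 difference over both stages of 0.9994 (SE 0.18), nearly that of Ero1lb. Heatr1, Lgals8 and Actn2 in the same region differed by -0.02, 0.31 and 0.15.

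At the 1-cell stage alone the smallest adjusted p (0.156 in limma) belonged to Mir8092, Gas2l3 and Tmem70. Tmem70, an assembly factor of the mitochondrial ATP synthase, measured 26.4 FPKM in both 1-cell m-z+ libraries and 9.48 and 9.62 FPKM in 1-cell m+z+ libraries (log2 difference 1.38, SE 0.17). Later, in 2-cell embryos, its order was the opposite, with 5.44 and 5.33 FPKM in m-z+ libraries and 7.92 and 6.995 FPKM in m+z+ libraries (-0.40, SE 0.17). The difference between stages was -1.78 (SE 0.24, limma adjusted p = 0.212). Snx30, a sorting nexin, measured 6.64 and 6.98 FPKM in 1-cell m-z+ libraries and 33.8 and 27.5 FPKM in 1-cell m+z+ libraries (log2 difference -2.01, SE 0.33, limma adjusted p = 0.684). The pseudogene model Gm12543 inside Snx30 held 23.8 and 19.0045 FPKM in 1-cell m-z+ libraries and 2.22 and 12.9 FPKM in 1-cell m+z+ libraries, the opposite order.

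Mir8092, a microRNA gene at the start of Zfp518a on chromosome 19, had the largest named difference between stages. Its mature product (RefSeq, GRCm38.p6, chr19:40894754-40894774, plus strand) is given with the seed, bases 2 to 8, in capitals, because the seed sets which transcripts a microRNA can pair with.
mmu-miR-8092: gCCAUCUGggacucgcaggca
The Mir8092 model held 6.11 and 11.8 FPKM in 1-cell m-z+ libraries and 0.1504 and 0.1256 FPKM in 1-cell m+z+ libraries. At the 2-cell stage it held 0.769 and 0.202 FPKM in m-z+ libraries and 6.40 and 3.57 FPKM in m+z+ libraries. Its log2 difference was 3.07 at the 1-cell stage and -1.996 at the 2-cell stage (SE 0.37 each), and the change between them was -5.06 (SE 0.52, limma adjusted p = 0.143), short of the threshold. Zfp518a, which covers nearly the whole of the model, measured 48.7 and 41.7 FPKM in 1-cell m-z+ libraries and 45.1 and 50.5 FPKM in 1-cell m+z+ libraries, with overlap between the groups. FPKM on a microRNA model in such libraries does not measure the mature microRNA. Ndfip1, an adaptor of NEDD4 ubiquitin ligases, and Atp6v1h, a subunit of the vacuolar proton pump, were likewise higher at the 1-cell stage (0.30 and 0.72) and lower at the 2-cell stage (-0.67 and -0.38) in m-z+ embryos, without passing. The small nucleolar RNA model Gm24201 inside Eif4a2, named by the same rule, went the opposite way. It was lower at the 1-cell and higher at the 2-cell stage in m-z+ embryos, also without passing.

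The genes that DPPA4 is known for in stem cells were then examined as lists. Of the 2-cell genes, 49 were tested and none passed in limma at either stage or over both. Their median log2 change was 0.07 over both stages, against 0.01 for all genes, and 47 of the 49 had a 95% interval within 2-fold. Zscan4c, a marker of the 2-cell stage, measured 16.96 and 15.16 FPKM in 2-cell m-z+ libraries and 6.98 and 25.1 FPKM in 2-cell m+z+ libraries. Zfp352 measured 92.5 and 77.2 FPKM in 2-cell m-z+ libraries and 68.5 and 84.8 FPKM in m+z+ libraries. Both mutant libraries lay between the controls for Zscan4c and overlapped them for Zfp352. Duxf3, the Dux gene that activates this programme, measured 1.47 and 1.82 FPKM in 1-cell m-z+ libraries and 1.71 and 1.31 FPKM in 1-cell m+z+ libraries. The smallest unadjusted p of the list was that of Zfp558 (log2 difference 0.57, SE 0.17, limma unadjusted p = 0.00863), which held 5.84 and 7.22 FPKM in 2-cell m-z+ libraries and 3.82 and 2.99 FPKM in m+z+ libraries.

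The Obox homeobox family, which acts in genome activation in the mouse, had a median change of -0.02 over 8 tested genes. Obox3, a gene switched on at the 2-cell stage, measured 79.4 and 78.8 FPKM in 2-cell m-z+ libraries and 68.2 and 58.8 FPKM in m+z+ libraries (log2 difference at that stage 0.32). Maternal transcripts had a median of -0.03 over 63 genes, of which none passed in limma and 62 had an interval within 2-fold. Pabpn1l, which recruits the machinery that shortens maternal mRNA tails, had the smallest unadjusted p among them (limma, 0.0969), and held 2.42 and 2.23 FPKM in 2-cell m-z+ libraries and 4.27 and 6.87 FPKM in 2-cell m+z+ libraries. Developmental genes with bivalent chromatin in stem cells had a median of -0.02 over 25 tested genes. Cdx2, a trophectoderm factor in that list, held 0.142 and 0.150004 FPKM in 2-cell m-z+ libraries and 1.05 and 1.17 FPKM in 2-cell m+z+ libraries (limma unadjusted p = 0.0581 over both stages). Genes of chromatin and DNA methylation had a median of -0.04 (53 tested). The decay factors of maternal mRNA had one of -0.02 (33 tested), and preimplantation factors one of 0.02 (38 tested), of which 2 lay higher and 2 lower in m-z+ embryos without overlap at either stage (2.2% and 1.58% of all genes).

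Of 24 lists, 23 had a median within 0.15 of 0 on the log2 scale, and 0 of their 778 distinct tested members passed in limma over both stages, with smallest unadjusted p of 0.00165 for Hist2h2ac. The exception was histone genes, whose median was 0.17 over 42 genes, at 0.18 in the 1-cell and 0.19 in the 2-cell stage. Of these, 31 were higher and 11 lower in m-z+ embryos, and 5 lay higher and 0 lower without overlap at either stage. That share of 5 in 42 stands beside 2.2% of all genes; none of the 42 passed. Hist2h2bb, the histone gene that was lower without overlap at both stages, is not among the 44 genes of the list. The lowest member was Hist3h2a (-0.77, SE 0.76), whose first 2-cell m-z+ library held 0.478 FPKM and whose second held 19.8 FPKM, against 25.9 and 14.6 FPKM in 2-cell m+z+ libraries. The largest difference was that of Hist1h2bj (0.78, SE 0.24), with 57.9 and 59.1 FPKM in 1-cell m-z+ libraries and 20.3 and 35.0 FPKM in 1-cell m+z+ libraries. H3f3b, which codes for the replacement histone H3.3, measured 297 and 227 FPKM in 1-cell m-z+ libraries and 215 and 214 FPKM in 1-cell m+z+ libraries. In 2-cell embryos H3f3b measured 219 and 247 FPKM in m-z+ libraries and 174 and 185 FPKM in m+z+ libraries. The summed histone level was 2786 and 2745 FPKM in 1-cell m-z+ libraries against 2232 and 2634 FPKM in 1-cell m+z+ libraries, and 3866 and 2915 FPKM in 2-cell m-z+ libraries against 3170 and 2574 FPKM in m+z+ libraries, so the sums overlapped at the 2-cell stage only. The list median stayed between 0.08 and 0.25 when any 1 library was left out.

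Markers of other cells were summed as well. Cumulus and granulosa markers, of which 6 of 25 were tested, summed to 72.82 FPKM in both 1-cell m-z+ libraries, against 72.41 and 56.1 FPKM in 1-cell m+z+ libraries. In 2-cell embryos they summed to 143 and 117 FPKM in m-z+ libraries, against 148 and 94.3 FPKM in m+z+ libraries, with overlap. Of 21 sperm transcripts 6 were tested, with summed levels of 101 and 106 FPKM in 1-cell m-z+ libraries and 120 and 114 FPKM in 1-cell m+z+ libraries, and both mutant sums lay below both controls. At the 2-cell stage they summed to 150 and 131 FPKM in m-z+ libraries and 120 and 134 FPKM in m+z+ libraries, with overlap. Over both stages 4 of the 6 tested members were higher and 2 lower in m-z+ embryos, with a median log2 change of 0.01. Within that list Prm2, the protamine that packs sperm DNA, measured 5.28 and 4.30 FPKM in 1-cell m-z+ libraries and 11.1 and 10.6 FPKM in 1-cell m+z+ libraries (log2 difference -1.03 at that stage), without overlap and without passing in limma. The part of these markers in other results was not tested. Blood cell genes summed to at most 10.4 FPKM in m-z+ libraries and 11.4 FPKM in m+z+ libraries.

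Several classes of small structural RNA models had medians away from that of mRNA. The classes are GENCODE gene types, chosen after their values were seen, and carry no test. For small nucleolar RNA and mitochondrial tRNA models the medians leaned on single libraries, as given below. Of 63 small nuclear RNA (snRNA) models tested, 50 were lower in m-z+ embryos, where 6424 of all 13634 genes were, with a median log2 change of -0.39, against 0.01 for 11487 protein-coding genes. The median was -0.45 at the 1-cell and -0.24 at the 2-cell stage, and 13 of the 63 were lower without overlap at either stage, where 1.58% of all genes were. Their summed level was 668 and 614 FPKM in 1-cell m-z+ libraries, against 1083 and 865.5 FPKM in 1-cell m+z+ libraries, and 1799 and 1889 FPKM in 2-cell m-z+ libraries, against 2538 and 1867 FPKM in 2-cell m+z+ libraries. The sums overlapped at the 2-cell stage, where the first control stood apart; the class median ran from -0.50 to -0.30 when any 1 library was left out. The U1 snRNA, the spliceosome component that pairs with the 5′ splice site, carries its pairing letters near its start, shown in capitals in the model Rnu1b6 (GENCODE M21, chr3:96460024-96460189, minus strand) because 20 of the 63 models carry the same 8 letters, ACTTACCT, in their first 20 bases on the transcribed strand.
Rnu1b6: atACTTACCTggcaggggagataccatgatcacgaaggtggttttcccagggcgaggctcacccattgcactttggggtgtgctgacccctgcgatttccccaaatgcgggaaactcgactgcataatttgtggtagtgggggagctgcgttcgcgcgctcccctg
Rnu1b6 measured 2.90 and 2.69 FPKM in 1-cell m-z+ libraries and 5.32 and 4.92 FPKM in 1-cell m+z+ libraries, and 7.68 and 8.72 FPKM in 2-cell m-z+ libraries and 14.9 and 11.2 FPKM in 2-cell m+z+ libraries. Its log2 difference was -0.65 (SE 0.14, limma unadjusted p = 0.0011), and Gm22068, another model with these letters, differed by -0.54 (SE 0.14). Of the 20 models, 19 were lower in m-z+ embryos, with a median of -0.43, and the other 43 snRNA models had a median of -0.34. Near-identical copies such as these share reads, so the models are not independent and single copies are uncertain.

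Small nucleolar RNA models had a median of -0.24, with 129 of 171 lower in m-z+ embryos but only 4 lower without overlap at either stage, near the share of all genes. Their sums were 1167 and 1279 FPKM in 1-cell m-z+ libraries, against 2226 and 1401 FPKM in 1-cell m+z+ libraries, and 5469 and 4545 FPKM in 2-cell m-z+ libraries, against 7452 and 4252 FPKM in 2-cell m+z+ libraries. The first control stood highest at each stage, and the second 2-cell control lay below both mutants. The median was -0.06 without the first 2-cell m+z+ library, -0.15 without the first 1-cell m+z+ library and -0.38 without the second 2-cell m+z+ library. Ribosomal RNA models had a median of -0.28, with 14 of 15 lower, but the dependence of this class on single libraries was not examined. Mitochondrial tRNAs went the other way. All 21 had a log2 change above 0, with a median of 0.46 at the 1-cell and 0.07 at the 2-cell stage. Their summed level was 3216 and 2195 FPKM in 1-cell m-z+ libraries, against 1895 and 2291 FPKM in 1-cell m+z+ libraries, so the sums overlapped and the first m-z+ library stood above the rest. Without it the median over both stages was 0.10, against 0.22 with all libraries, and 17 of the 21 lay above 0; without the first 1-cell m+z+ library it was 0.14. The 13 mitochondrially encoded protein genes had a median of -0.02. In Dppa2 m-z+ against their own m+z+ embryos the same classes had medians of -0.34 for snRNA, -0.44 for small nucleolar RNA, -0.57 for ribosomal RNA and 0.14 for mitochondrial tRNA models. Each of these classes thus had the same sign in both arms, which share no library. Their dependence on single libraries was not examined in the Dppa2 arm, and the agreement carries no test.

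**Figure D5:**
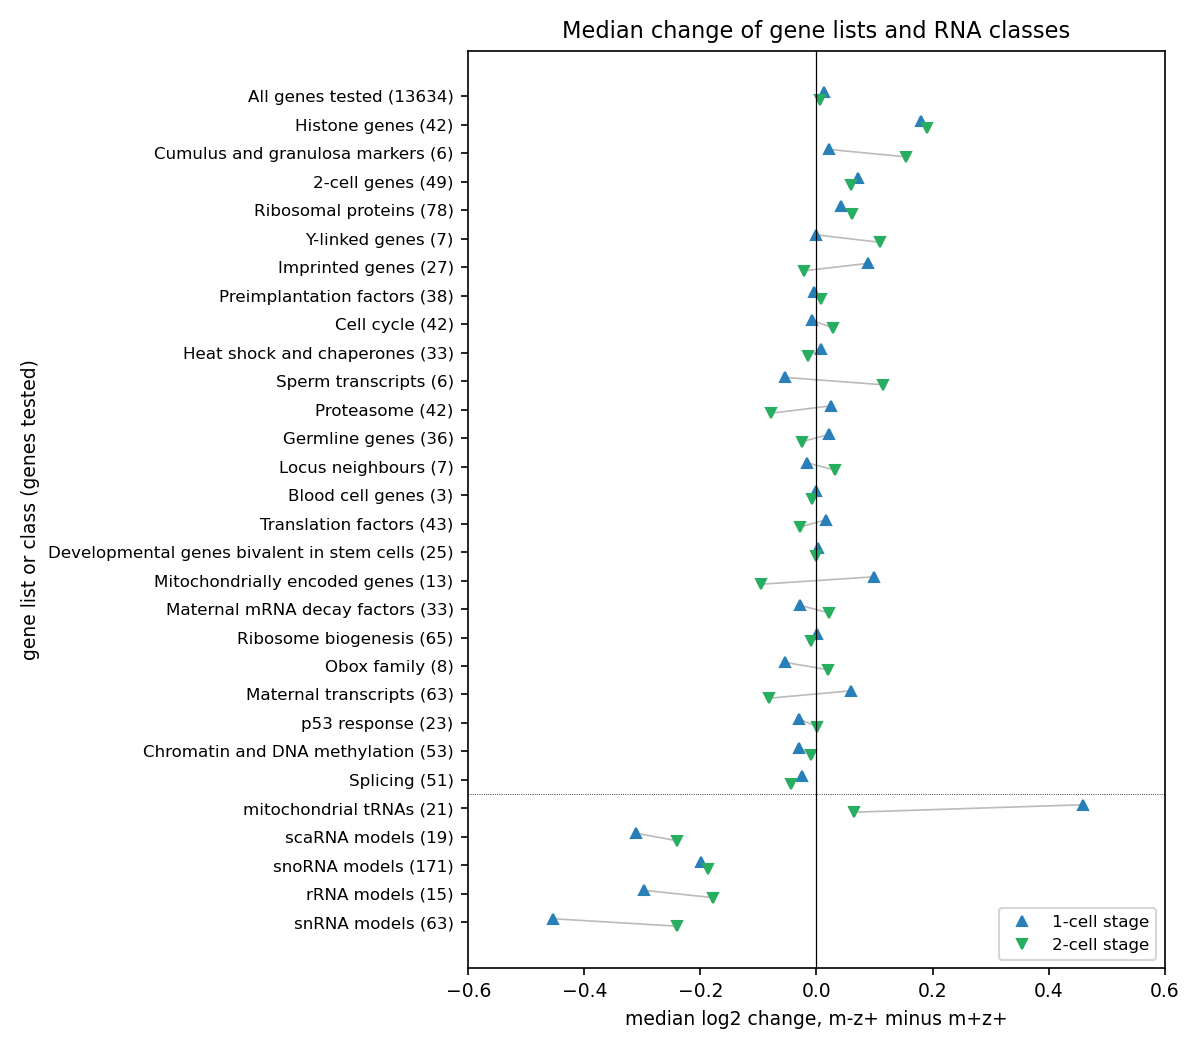
Median log2 change, m-z+ minus m+z+, of each gene list (upper part) and of 5 classes of small RNA models (below the dotted line), at the 1-cell stage (blue) and the 2-cell stage (green); the number of genes tested is in brackets. Most lists lie near 0, histone genes lie at 0.18 and 0.19, and snRNA models at -0.45 and -0.24.

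The 20 named genes were then set beside libraries that had no part in choosing them. In Dppa2 m-z+ against m+z+ embryos, 14 of the 20 had the same sign of change, against 51.9% of all genes tested, and 6 of these 14 had a limma unadjusted p under 0.05, though none passed. Over all 13634 genes, 482 had the same sign and such a p. In the polyA libraries, 8 of 17 genes measured had the same sign in Dppa4 m-z+ against WT embryos, against 6401 of 12866 over all genes. Of the 17, 3 had a limma unadjusted p under 0.05 in polyA RNA, and only 2 of these, Eri1 and Mfhas1, had the same sign. Over all genes 856 had such a p in polyA RNA, of which 420 had the same sign. Eri1 and Mfhas1 also had the same sign in the Dppa2 arm, and their values are given because they were seen first. Eri1 measured 14.11, 14.97 and 14.20 FPKM in m-z+ polyA libraries and 0.182 and 4.81 FPKM in WT libraries (log2 difference 2.56, SE 0.51, limma adjusted p = 0.173). Mfhas1 measured 2.45, 4.58 and 14.9 FPKM in m-z+ and 0.0982 and 0 FPKM in WT polyA libraries (2.69, SE 0.68, limma adjusted p = 0.358). The 3 mutant embryos lay above both WT embryos for each gene. In the Dppa2 arm Eri1 and Mfhas1 differed by 0.63 and 0.73 (limma adjusted p = 0.534 and 0.546). No gene passed in polyA RNA (0 of 18506 in limma, 0% of genes, 1230 at an unadjusted p under 0.05), where 7.26% of intervals lay within 2-fold.

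Ero1lb differed between the arms. It had a log2 change of 0.99 in Dppa4 m-z+ embryos and of -0.05 in Dppa2 m-z+ embryos, which are 1.04 apart (SE 0.21, limma adjusted p = 0.616) and not past the threshold. Its level was 9.83 and 10.01 FPKM in 1-cell Dppa4 m-z+ embryos and 4.21 and 4.01 FPKM in their controls, while in the Dppa2 arm 1-cell m-z+ embryos held 12.4 and 14.2 FPKM and their controls 14.6 and 15.8 FPKM. The Dppa4 controls were thus the lowest of the 4 groups. A difference between the arms passed for 1 of 15068 genes (0.00664% of genes), the snRNA model Gm22973. It measured 52.3 and 37.4 FPKM in 1-cell Dppa4 m-z+ embryos and 69.0 and 48.2 FPKM in their controls, and was listed at 0 in both 1-cell Dppa2 m-z+ libraries.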

How the data were processed

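The authors deposited FPKM for 46078 genes and all libraries; HISAT2 2.1.0, StringTie 1.3.3b and the mm10 genome are named in the submitters' processing notes. Which annotation, filters and strand option they used is not given in the sources used here. No counts accompany the FPKM, so the depth per library is unknown. A gene was tested if 2 or more of the 8 libraries had 1 FPKM or more (13634 genes). A pseudocount of 1 was added, and limma 3.58.1 (R 4.3.3, statmod 1.5.0) was fitted with the trend and robust options: 1 fit with stage as covariate, and 1 with a mean for each of the 4 groups for the single stages and their difference. The polyA and 2-arm comparisons used all 16 libraries of their table. Tests were two-sided, with Benjamini-Hochberg adjustment over all genes tested and a threshold of 0.05. The scripts were tested on simulated data with 100 genes changed per fold size; 3, 4 and 10 unchanged genes were called over both stages, at the 1-cell and at the 2-cell stage. Positions come from GENCODE M21 (45143 of 46078 identifiers, 98.0%), and the mature microRNA from RefSeq.

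The comparison, the 24 gene lists and the naming rule were chosen with earlier results of these data known. The rule names Dppa4, Dppa2 and locus neighbours, up to 20 genes over both stages as described, up to 6 per stage or stage difference where fewer pass, and for each list the members with the largest change. Eri1 and Mfhas1 as a region, the chromosome 3 region, Gpr137b-ps and the Scarna13 pair were picked after their values were seen. So were single list members beyond the rule and the RNA classes. The main fits did not pair libraries by replicate number. Across genes, the difference between the replicates of 1 genotype correlated weakly with that of the other (r = 0.13 at the 1-cell and -0.05 at the 2-cell stage). A weak r cannot exclude a pairing. FPKM totals of 2-cell libraries were 552218 (m-z+) and 560246 (m+z+) under number 1, and 509724 and 511092 under number 2. At the 1-cell stage they were 413981 and 417598 under number 1, and 412115 and 417534 under number 2. The labels name no batch. Alternatives were another pseudocount, other filters, TPM and median-ratio scaling, a fit of all 16 total RNA libraries, limma without the 2 options, a replicate block, a fit of each stage alone, and leaving out each library; for the RNA classes the last was added after seeing the data.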

Additional observations from a re-analysis of the deposited data

Results flagged for a closer look

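The snRNA model Gm22973 (mm10 chromosome 12, 59040335 to 59040525) was the only gene whose m-z+ change differed between the Dppa4 and the Dppa2 arm past the threshold (difference of log2 changes 5.15, SE 0.55, limma adjusted p = 0.00782, 16 libraries). In the Dppa2 arm it was listed at 0 in both 1-cell m-z+ libraries and held 28.0 and 5.36 FPKM in the 2-cell m-z+ libraries, against 111 and 55.7 FPKM in 1-cell m+z+ libraries, and 249.6 and 352 FPKM in 2-cell m+z+ libraries. In the Dppa4 arm the genotypes overlapped at both stages, with a log2 difference of -0.23 (SE 0.21). The difference lies on the Dppa2 side, where the background is also another, B6/DBA instead of B6.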

How the results depend on the processing

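Of 6 genes past the threshold at the 2-cell stage in limma, 3 passed with a pseudocount of 0.1 FPKM. The same 3 passed with a filter at 5 FPKM, which left out the other genes. These were Rnu3a, U3 and Gm28967, the models that share their sequence with a second model. Rnu3a and Gm28967 also passed in a fit of the 4 libraries of that stage only. With TPM scaling Gm20696 passed besides the 3. All 6 passed with median-ratio scaling and in limma without the 2 options, where Zbed6 passed too. None passed with no filter on low values, in a fit of all 16 total RNA libraries or with the replicate block. The same held with overlapping gene models summed, an alternative chosen after seeing the data. At the 1-cell stage, where 0 had passed, 1 gene (Mir8092) passed in the fit of all 16 libraries and 2 (mmu-mir-3069 and Scarna13) in the fit of 4. For the stage-dependent change, 1 gene passed with a pseudocount of 0.1 FPKM (Rnu3a) and 1 in the fit of all 16 libraries (Mir8092), against 0. Leaving out 1 library gave 0 to 2 genes over both stages, at each stage and for the stage-dependent change, 0 to 5 for the difference between arms and 0 to 1 in polyA RNA. Over both stages the 2-gene count came without the first 2-cell m-z+ library, and 1 gene (Gm27671) passed without the second 1-cell m-z+ library. The 2 genes of that count were Scarna13 (log2 difference -7.31) and mmu-mir-3069 (5.09), the overlapping pair described above. In the library left out the signal lay on Scarna13, unlike in the other m-z+ libraries. The cause of these shifts in the counts was not tested.

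The Dppa4 difference at the 2-cell stage ran from -0.39 to 0.36 over fits that left out 1 library, and was above 0 without the first 2-cell m+z+ library (0.36) and without the second 2-cell m-z+ library (0.14). At the 1-cell stage it ran from -2.71 to -1.62, and over both stages from -1.45 to -0.66. The replicate block also left 0 genes for the difference between arms, where 1 had passed, and 0 in polyA RNA; the libraries share replicate numbers only. Over both stages 0 genes passed under the other alternatives run, besides those 2 left-out libraries. Among the 20 named genes none reversed sign under 17 alternatives. The genes were chosen for lying apart in these same libraries, so this outcome was nearly fixed by the rule and is no separate support. With 2 libraries per group and no counts, single-stage changes of 2-fold lie near the limit of detection.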
